A study of Mus musculus with 24 samples.

Results

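Heat shock proteins and J domain proteins, encoded by the Hsp and Dnaj genes, were followed in organoids grown from the mouse ventral prostate. The members were the protein-coding genes whose symbol starts with Hspa, Hspb, Hsp90, Hspd, Hspe, Hsph, Dnaja, Dnajb or Dnajc. This rule takes 74 of the 54838 genes of the table, of which 21976 are protein-coding. A further 12 genes with such symbols are processed pseudogenes and were left out, and none of them was above 3.74 FPKM in any library. FPKM is a fragment count corrected for the length of the transcript and for how many fragments of the library were mapped. Of the 74 members, 58 reached 1 FPKM in at least 5 libraries and were tested. The other 16 stayed at 1 FPKM or below in every library, and 11 of those were listed at 0 throughout.

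Chaperones hold, fold and refold proteins. HSP70 proteins bind exposed stretches of a client in a cycle driven by ATP, and J domain proteins deliver the clients and set off ATP hydrolysis. HSP90 acts later, on clients such as kinases and steroid receptors, including the androgen receptor of the prostate. Small heat shock proteins hold unfolded proteins without ATP. The endoplasmic reticulum and the mitochondrion each have their own HSP70 with dedicated partners, and the mitochondrial matrix also has the HSP60 and HSP10 folding chamber.

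The control genotype is named Tmprss2-fl/fl-ERG and the other Tmprss2-ERG, called T-ERG here. Both names hold Tmprss2 and ERG, and the labels give no promoter or Cre for either. Each genotype has 2 organoid clones, and each clone has 5 libraries, made from separate Matrigel domes of 30 µL seeded with 3000 cells. All organoids came from mouse tissue at 4 months, and the labels do not say whether the clones came from separate mice. A clone number has no meaning across genotypes, so clone 1 of control and clone 1 of T-ERG are not related by it. In 2 T-ERG columns the header number is the same, so these libraries of T-ERG clone 2 are unnumbered and listed first among its values.

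The 20 libraries had FPKM sums between 728255 and 794589, and read depth is unknown. Their values correlated across genes with a median r of 0.965 within a clone, 0.937 between clones of a genotype and 0.930 between genotypes. Mouse Erg lay between 0.32 and 2.23 FPKM in control and between 0.54 and 3.17 in T-ERG, and so did not separate the labelled genotypes. Tmprss2, the other gene named in both genotypes, lay between 85.2 and 107 FPKM in control and between 32.3 and 57.2 in T-ERG, with no overlap. Defining keratins of basal epithelium were abundant, with Krt5 at a median of 5639 FPKM in control and 8629 in T-ERG. Krt15 of the same list had medians of 8804 and 4767, in the opposite order, and Itga6 and Itgb4 overlapped between genotypes. The 6 basal markers summed to between 17811 and 22096 FPKM in control and between 22730 and 24704 in T-ERG. The luminal secretory marker Pbsn was listed at 0 in every library. The summed FPKM of 8 stromal markers stayed at 3.01 or below. The 8 squamous markers summed to 2094 to 2340 FPKM in control clone 1 and 597 to 640 in control clone 2. They summed to 6461 to 6656 in T-ERG clone 1 and 10691 to 11108 in T-ERG clone 2. Not every squamous marker followed the sum, as Ivl was at 85.0 to 221 FPKM in control and 31.5 to 52.2 in T-ERG, and Lor had medians of 2.09 and 2.51. The 10 luminal markers summed to between 5473 and 6066 in control and between 2231 and 3484 in T-ERG. In bulk RNA, fewer cells of a type and less RNA per cell cannot be told apart, and the part of these markers in the results that follow was not tested.

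Promoter sequence is shown for members whose levels the results turn on. It comes from RefSeq windows on GRCm38.p6, running from 250 bases before to 50 after a start site, and 60 of the 74 members have such a window. Capitals mark either TTCNNGAA or GAANNTTC, a pair of facing units of the element that heat shock factor binds. In Hspa5 and Hsp90b1 they mark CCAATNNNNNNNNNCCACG on either strand, the endoplasmic reticulum stress element. Hspd1 and Hspe1, which encode HSP60 and HSP10, point away from each other. The stretch between the Hspd1 start site at 55087932 and the Hspe1 start site at 55088148 is chr1:55087933-55088147, given on the plus strand. Hspd1 is read from the minus strand, and its annotated span runs to 55088243, past the start site used here and that of Hspe1.
Hspd1-Hspe1 interval: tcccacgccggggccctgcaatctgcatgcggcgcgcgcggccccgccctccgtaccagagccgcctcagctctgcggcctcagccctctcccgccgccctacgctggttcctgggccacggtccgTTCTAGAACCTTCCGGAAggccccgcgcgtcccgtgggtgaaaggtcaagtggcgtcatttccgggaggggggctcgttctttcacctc
The remaining stretches are the 250 bases before the start site, each on the strand of its gene, shown because their genes are the most abundant small heat shock protein, the inducible HSP70 and the leading endoplasmic reticulum chaperones. They lie at chr5:135887669-135887918 (plus) for Hspb1, chr17:34959239-34959488 (minus) for Hspa1b, chr2:34771840-34772089 (plus) for Hspa5 and chr10:86705445-86705694 (minus) for Hsp90b1.
Hspb1: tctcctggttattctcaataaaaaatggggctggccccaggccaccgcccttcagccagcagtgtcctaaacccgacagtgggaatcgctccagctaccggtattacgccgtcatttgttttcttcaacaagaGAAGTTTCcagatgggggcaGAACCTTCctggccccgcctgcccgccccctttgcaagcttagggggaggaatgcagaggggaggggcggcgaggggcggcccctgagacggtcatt
Hspa1b: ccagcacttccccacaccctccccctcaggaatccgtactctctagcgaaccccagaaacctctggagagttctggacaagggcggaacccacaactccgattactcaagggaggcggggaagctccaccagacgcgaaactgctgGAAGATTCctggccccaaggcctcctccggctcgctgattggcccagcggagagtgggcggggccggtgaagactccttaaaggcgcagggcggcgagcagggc
Hspa5: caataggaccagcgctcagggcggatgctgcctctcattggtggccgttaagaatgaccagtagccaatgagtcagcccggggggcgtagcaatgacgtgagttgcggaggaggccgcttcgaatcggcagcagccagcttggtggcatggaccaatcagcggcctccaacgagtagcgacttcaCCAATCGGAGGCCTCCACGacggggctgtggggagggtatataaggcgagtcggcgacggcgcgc
Hsp90b1: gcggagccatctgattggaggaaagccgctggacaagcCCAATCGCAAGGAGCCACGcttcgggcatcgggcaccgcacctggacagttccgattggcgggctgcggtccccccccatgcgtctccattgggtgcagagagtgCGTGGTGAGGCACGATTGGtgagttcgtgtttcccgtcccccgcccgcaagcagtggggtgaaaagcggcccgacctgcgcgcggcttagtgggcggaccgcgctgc
The interval of Hspd1 and Hspe1 holds an unbroken row of facing units, Hspb1 holds 2 pairs and Hspa1b holds 1. TTCNNGAA is in 8.52% and GAANNTTC in 7.86% of all 32851 windows, and at least 1 of them is in 15.1%. Among the 77 windows of members, 18 hold at least 1 of them (23.4%). These windows belong to 16 of the 60 members with a window, and some share bases, as those of Hspd1 and Hspe1 do, so they are not separate sites. The longer row TTCNNGAANNTTC, which contains both shorter ones, is in 0.320% of all windows and in those of Hspd1, Hspe1 and Hsph1. The endoplasmic reticulum stress element is in 0.119% of all windows and in those of Hspa5, Hsp90b1 and Dnajc3. A match describes the letters of a window only.

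A few members made up most of the chaperone RNA. Averaged over genotypes, Hsp90ab1, Hspb1 and Hspa8 gave 51.5% of the summed FPKM of the members, and the 10 most abundant gave 75.2%. Hsp90ab1, the constitutive cytosolic HSP90, led with a mean of 1229 FPKM, followed by Hspb1 at 1162 and Hspa8 at 773. The next were Hspa1b at 291, Hsp90aa1 at 244 and Hspa5 at 237. All members together took 0.637% to 0.659% of the summed FPKM in control clone 1 and 0.786% to 0.798% in control clone 2. They took 0.843% to 0.861% in T-ERG clone 1 and 0.934% to 0.970% in T-ERG clone 2. The 4 ranges do not overlap, and control clone 2 stood closer to T-ERG clone 1 than to control clone 1.

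**Figure D1:**
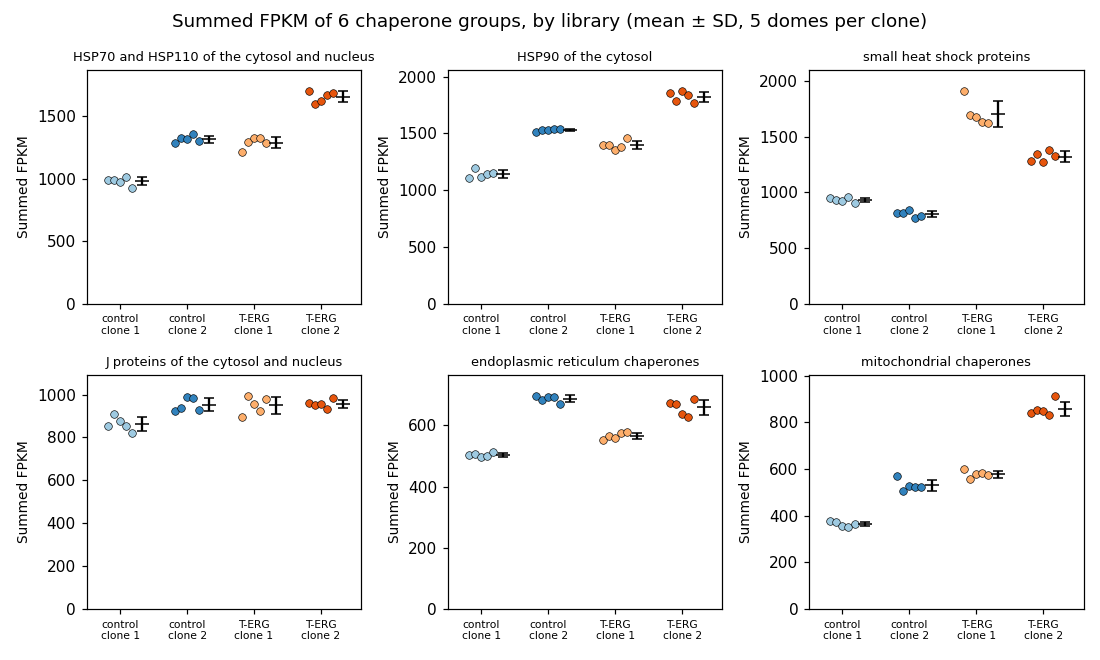
Summed FPKM (vertical axis, linear from 0) of 6 chaperone groups, with 1 point per library, 4 clones along the horizontal axis and bars for the mean and SD of 5 domes. The small heat shock proteins lay between 1269.6 and 1912 in T-ERG and at 959 or below in control, while the other 5 groups overlapped between genotypes. Most of that small heat shock protein sum was Hspb1, which alone lay between 1230.0 and 1875 in T-ERG and between 745 and 936 in control.

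T-ERG was compared with control on the means of the 4 clones, since the genotype differs only between clones. No member passed the limma test at an adjusted p of 0.05, and neither did any other of the 12899 genes tested (0%), while 1089 genes had an unadjusted p below 0.05. Among the members, 4 had an unadjusted p below 0.05, all higher in T-ERG, and the smallest adjusted p of a member was 0.574. A limma fit of all 20 libraries that took clones as random blocks called 13 of the 58 members higher and 1 lower, where the shares over all genes were 5.23% and 5.61%. That fit assumes the same correlation between domes of a clone for every gene. Its p-values are therefore too small for genes whose clones differ more than assumed. The libraries themselves separated by genotype for 5 members, Hspd1, Hspb1, Dnajc2, Hspb8 and Hspa9, all of them higher in T-ERG. Over all genes tested, 2.50% were higher in all 10 T-ERG libraries than in all 10 control libraries and 3.70% were lower, against 5 and 0 of the 58 members. The 5 became 17 without control clone 2 (13.1% over all genes), 15 without T-ERG clone 1 (11.8%) and 7 without control clone 1 (4.52%), so the share over all genes rose as well. The means of both T-ERG clones exceeded those of both control clones for 17 of the 58 members and were under them for 13, where the shares over all genes were 21.7% and 23.2%. The median difference of the members was 0.08 log2 units, with 37 above 0 and 21 below, and that of all genes was 0.01.

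**Figure D2:**
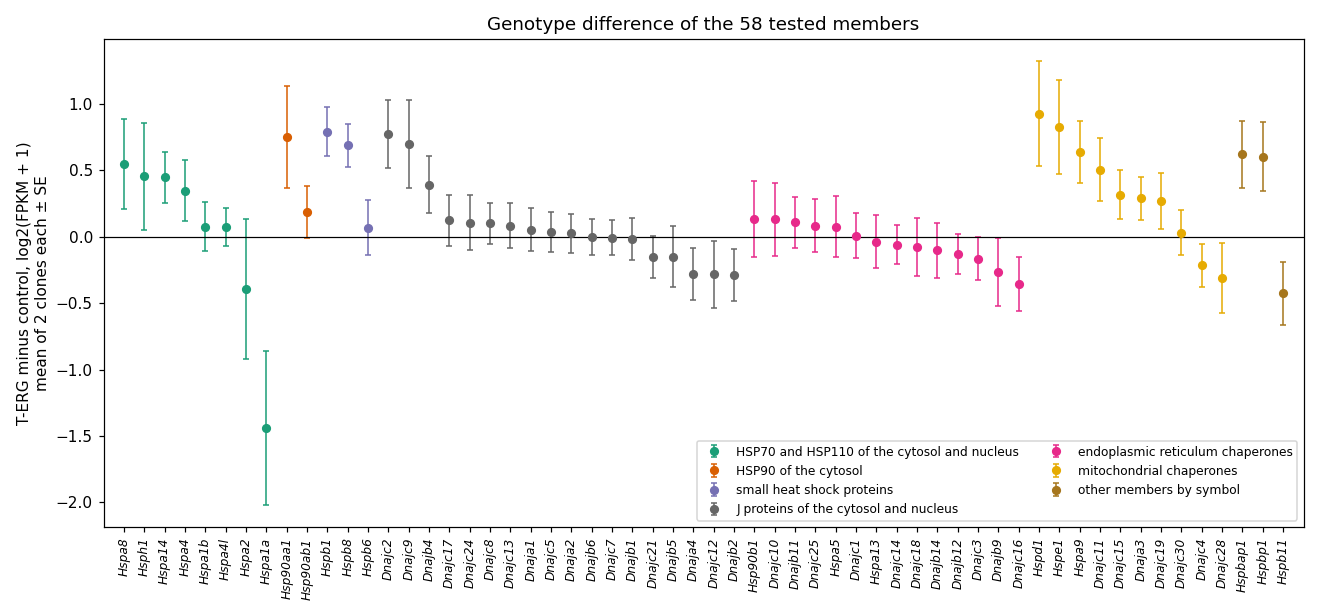
Difference between T-ERG and control on the log2(FPKM + 1) scale (vertical axis) for the 58 tested members, ordered by size within each group along the horizontal axis, with bars for the SE from 4 clone means. The mitochondrial members Hspd1, Hspe1 and Hspa9 and the small heat shock proteins Hspb1 and Hspb8 lie above 0, most endoplasmic reticulum members lie near 0, and Hspa1a is lowest at -1.44.

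Of the 7 small heat shock protein genes, 3 were tested, and 2 of these separated by genotype, both higher in T-ERG. Over all genes tested, 2.50% separated with T-ERG higher and 3.70% with T-ERG lower. Hspb1 (ENSMUSG00000004951, chromosome 5, 135887919 to 135889563) encodes the protein known in human as HSP27, which holds unfolded proteins and binds actin. In control, Hspb1 was at 924, 909, 904, 936 and 887 FPKM in the domes of clone 1 and 789, 787, 822, 745 and 765 in those of clone 2. In T-ERG, Hspb1 was at 1875, 1658, 1641, 1600.1 and 1588 FPKM in clone 1 and 1247, 1294, 1230.0, 1351 and 1295 in clone 2. Every T-ERG library lay above every control library, and the control maximum of 936 was below the T-ERG minimum of 1230.0. The difference was 0.79 ± 0.19 (SE), with a 95% interval from 0.31 to 1.28, and an adjusted p of 0.574. Within both genotypes Hspb1 was lower in clone 2, with differences of -0.22 ± 0.03 (SE) in control (adjusted p = 0.000157) and -0.38 ± 0.05 (SE) in T-ERG (adjusted p = 0.00011). The summed squamous markers were also higher in both T-ERG clones than in control, but they were lower in clone 2 of control and higher in clone 2 of T-ERG, and their part in the Hspb1 values was not tested.

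Hspb8 (ENSMUSG00000041548, chromosome 5, 116408491 to 116422864) works with BAG3 to bring misfolded proteins to autophagy. In control, Hspb8 was at 21.6, 19.3, 17.2, 19.7 and 18.96 FPKM in clone 1 and 20.7, 21.6, 21.1, 21.2 and 21.6 in clone 2. In T-ERG, Hspb8 was at 34.6, 30.1, 31.1, 32.9 and 28.4 FPKM in clone 1 and 33.6, 43.0, 35.5, 32.8 and 32.8 in clone 2. The genotypes did not overlap, and the difference was 0.69 ± 0.16 (SE) with an interval from 0.26 to 1.12 and an adjusted p of 0.574. Hspb8 passed the test in neither clone comparison, with clone 2 minus clone 1 at 0.13 ± 0.06 (SE) in control and 0.17 ± 0.08 (SE) in T-ERG. Hspb6, the third tested member, was low, with clone means between 2.77 and 3.38 FPKM and a difference of 0.07 ± 0.21 (SE).

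Of the 10 mitochondrial members, 7 had the means of both T-ERG clones above those of both control clones and 2 had them below, with a median difference of 0.30. The shares over all genes were 21.7% above and 23.2% below. Hspd1 (ENSMUSG00000025980, chromosome 1, 55077833 to 55088243) encodes HSP60, the barrel of the matrix folding chamber. In control, Hspd1 was at 81.0, 79.9, 75.3, 70.2 and 76.1 FPKM in clone 1 and 132, 130.0, 132, 132 and 124 in clone 2. In T-ERG, Hspd1 was at 138, 139, 151, 141 and 138 FPKM in clone 1 and 246, 264, 253, 249.8 and 273 in clone 2. All T-ERG libraries were above all control libraries, but the gap between control clone 2 (maximum 132) and T-ERG clone 1 (minimum 138) was small beside the gap between clones of either genotype. The genotype difference was 0.93 ± 0.40 (SE), from -0.11 to 1.97, adjusted p = 0.574. Clone 2 exceeded clone 1 by 0.76 ± 0.05 (SE) in control (adjusted p = 2.14e-07) and 0.86 ± 0.04 (SE) in T-ERG (adjusted p = 8.59e-08).

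Hspe1 (ENSMUSG00000073676, chromosome 1, 55088148 to 55091317), the HSP10 lid of that chamber, shares the interval shown above with Hspd1. In control, Hspe1 was at 100.1, 90.7, 87.1, 81.4 and 74.4 FPKM in clone 1 and 169.9, 135, 147, 142 and 145 in clone 2. In T-ERG, Hspe1 was at 188, 149, 149.8, 160.4 and 154 FPKM in clone 1 and 251, 252, 253, 228 and 279 in clone 2. The order of the clones was that of Hspd1, but 6 of the 10 T-ERG libraries exceeded the control maximum of 170 and the genotypes overlapped. The difference was 0.82 ± 0.35 (SE) (adjusted p = 0.574). The ratio of Hspd1 to Hspe1 FPKM was 0.888 ± 0.0805 in control clone 1, 0.884 ± 0.0721 in control clone 2, 0.891 ± 0.101 in T-ERG clone 1 and 1.02 ± 0.0502 in T-ERG clone 2 (SD, n = 5). The annotated gene spans overlap at their 5′ ends. The sources used here do not give whether reads were counted by strand, so reads from the overlap cannot be told apart.

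Hspa9 (ENSMUSG00000024359) encodes mortalin, the matrix HSP70 that also pulls proteins through the import channel. In control, Hspa9 was at 95.7, 101, 96.2, 89.2 and 98.4 FPKM in clone 1 and 128, 123, 127, 124 and 128 in clone 2. In T-ERG, Hspa9 was at 144, 146, 149, 151 and 145 FPKM in clone 1 and 193, 204, 205, 194 and 208 in clone 2. The genotypes did not overlap, with a difference of 0.64 ± 0.23 (SE) (adjusted p = 0.574), and clone 2 was higher in both genotypes, by 0.39 ± 0.04 (SE) in control and 0.45 ± 0.03 (SE) in T-ERG (adjusted p = 1.43e-05 and 2.57e-06). Dnaja3, a J protein of the matrix, had clone means of 16.3 ± 1.44 and 18.6 ± 1.41 FPKM in control and 21.5 ± 1.72 and 21.4 ± 1.83 in T-ERG (SD, n = 5). It passed in neither clone comparison. Dnajc19, a J protein at the import motor, had a genotype difference of 0.27 ± 0.21 (SE), and it was higher in control clone 2 than in clone 1 by 0.39 ± 0.12 (SE) (adjusted p = 0.0231). That call was lost without control dome 3, 6 or 10, with adjusted p up to 0.0556.

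**Figure D3:**
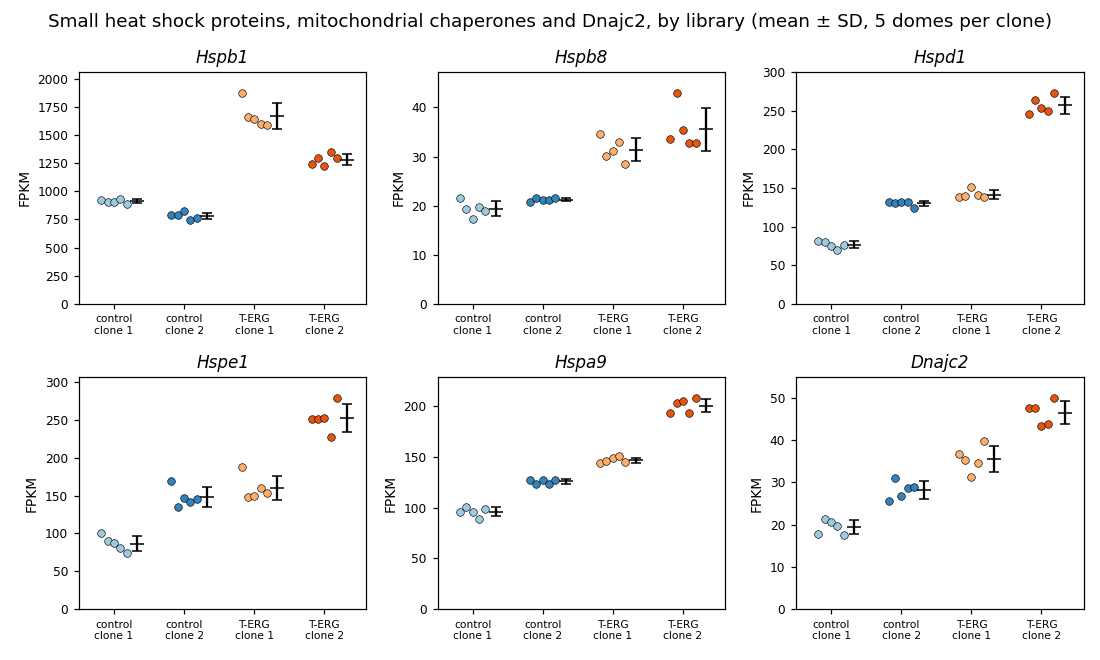
FPKM (vertical axes, linear from 0) of Hspb1, Hspb8, Hspd1, Hspe1, Hspa9 and Dnajc2, with 1 point per library, clones along the horizontal axis and bars for the mean and SD of 5 domes. The T-ERG points lie above all control points except for Hspe1, and Hspd1 shows control clone 2 just below T-ERG clone 1, at 124 to 132 against 138 to 151.

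Dnajc2 (ENSMUSG00000029014, chromosome 5, 21757266 to 21785264) encodes a ribosome-associated J protein known in human as MPP11. Of 18 tested cytosolic and nuclear J proteins, 1 separated by genotype in its libraries, Dnajc2, with T-ERG higher. Such separation was found for 2.50% of all genes with T-ERG higher and 3.70% with T-ERG lower. In control, Dnajc2 was at 17.8, 21.3, 20.5, 19.6 and 17.6 FPKM in clone 1 and 25.6, 31.1, 26.8, 28.7 and 29.0 in clone 2. In T-ERG, Dnajc2 was at 36.8, 35.2, 31.3, 34.5 and 39.8 FPKM in clone 1 and 47.6, 47.6, 43.4, 43.8 and 49.9 in clone 2. The gap was narrow, 31.1 against 31.3 at the nearest libraries, and the difference was 0.77 ± 0.26 (SE) (adjusted p = 0.574). Dnajc2 was higher in clone 2 by 0.52 ± 0.07 (SE) in control and 0.38 ± 0.07 (SE) in T-ERG (adjusted p = 0.000229 and 0.00149).

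The median difference of the 18 J proteins was 0.03, with both clone means above for 3 and below for 4, where the shares over all genes were 21.7% and 23.2%. Dnajc9, which is also a histone chaperone, had clone means of 10.4 ± 1.97 and 14.2 ± 0.947 FPKM in control and 15.3 ± 1.25 and 26.9 ± 2.73 in T-ERG (SD, n = 5). Its clones differed in both genotypes, clone 2 being higher by 0.42 ± 0.12 (SE) in control and 0.78 ± 0.08 (SE) in T-ERG (adjusted p = 0.0151 and 3.62e-05). The control call of Dnajc9 was lost with median centring (adjusted p = 0.055) and with quantile normalization (adjusted p = 0.0567). Dnajb4, a partner of cytosolic HSP70, was lower in control clone 2 than in every library of the other clones, with means of 30.7 ± 2.62 and 21.6 ± 1.67 in control and 34.2 ± 1.04 and 34.0 ± 1.70 in T-ERG. The fall between control clones was -0.49 ± 0.07 (SE) (adjusted p = 0.000352). Dnajb1, the J protein HSP40, had a mean of 33.5 ± 0.780 FPKM in control clone 1, 31.2 ± 1.53 in clone 2, 34.1 ± 1.83 in T-ERG clone 1 and 30.0 ± 0.905 in clone 2. Its genotype difference was -0.02 ± 0.16 (SE), and it was lower in T-ERG clone 2 with a difference of -0.18 ± 0.05 (SE) (adjusted p = 0.0209), a call lost without dome 3 of T-ERG clone 1 (adjusted p = 0.0522). The abundant partners Dnaja1, Dnaja2 and Dnajc8 had genotype differences of 0.05 ± 0.16, 0.03 ± 0.15 and 0.10 ± 0.15, and all were higher in control clone 2 (adjusted p = 0.0073, 0.0275 and 0.0489). The calls of Dnaja2 and Dnajc8 were lost without single control domes, with adjusted p up to 0.0662 and 0.107, and with median centring. They were lost without domes 1, 4, 9 or 10 for Dnaja2 and without any 1 dome but 2 and 7 for Dnajc8.

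The cytosolic HSP70 genes differed among themselves. Hspa8 (ENSMUSG00000015656, chromosome 9, 40801276 to 40805202), the constitutive HSC70, was at 462, 469, 443, 483 and 433 FPKM in control clone 1 and 802, 822, 806, 864 and 792 in control clone 2. In T-ERG, Hspa8 was at 692, 758, 783, 781 and 746 FPKM in clone 1 and 1086, 1027, 1059, 1075 and 1085 in clone 2. T-ERG clone 1 lay below every library of control clone 2, so the genotypes overlapped, and the difference was 0.55 ± 0.34 (SE) (adjusted p = 0.598). Clone 2 exceeded clone 1 by 0.83 ± 0.04 (SE) in control (adjusted p = 1.90e-08) and 0.50 ± 0.04 (SE) in T-ERG (adjusted p = 2.19e-06). Hsph1, the HSP110 that exchanges the nucleotide of HSP70, followed the same order with means of 13.4 ± 2.77 and 23.3 ± 4.15 FPKM in control and 17.9 ± 3.42 and 33.3 ± 4.00 in T-ERG (SD, n = 5). Its clone differences were 0.76 ± 0.15 (SE) and 0.87 ± 0.13 (SE) (adjusted p = 0.00241 and 0.000408). Hspa4, a further HSP110, was higher in control clone 2 by 0.54 ± 0.06 (SE) (adjusted p = 4.44e-05), while in T-ERG it differed by 0.20 ± 0.08 (SE) (adjusted p = 0.0891). Hspa4l, its testis-rich relative, had clone means between 37.3 and 41.2 FPKM and passed no comparison.

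Hspa1a (ENSMUSG00000091971, chromosome 17, 34969359 to 34972156) and Hspa1b (ENSMUSG00000090877, chromosome 17, 34956429 to 34959238) encode the stress-inducible HSP70 and are near-identical copies. In control, Hspa1a was at 16.1, 17.5, 18.1, 14.7 and 15.5 FPKM in clone 1 and 9.33, 10.6, 10.6, 8.98 and 11.5 in clone 2. In T-ERG, Hspa1a was at 7.35, 9.81, 9.59, 6.35 and 6.68 FPKM in clone 1 and 1.19, 3.12, 2.05, 2.43 and 1.49 in clone 2. Hspa1a had the lowest genotype difference of the members at -1.44 ± 0.58 (SE), from -2.96 to 0.08 (adjusted p = 0.574), and 8 of 10 T-ERG libraries were below all control libraries. It fell from clone 1 to clone 2 in both genotypes, with -0.63 ± 0.09 (SE) in control (adjusted p = 0.000177) and -1.57 ± 0.19 (SE) in T-ERG (adjusted p = 9.39e-05). In control, Hspa1b was at 327, 333, 328, 341 and 299 FPKM in clone 1 and 238, 247, 238, 248 and 245 in clone 2. In T-ERG, Hspa1b was at 277, 285, 291, 289.9 and 295 FPKM in clone 1 and 313, 302, 293, 323 and 299 in clone 2. All T-ERG values of Hspa1b lay between the highest and the lowest control value, with a genotype difference of 0.08 ± 0.19 (SE), and control clone 2 was lower than clone 1 with a difference of -0.42 ± 0.04 (SE) (adjusted p = 6.42e-06). The T-ERG clones differed by 0.09 ± 0.03 (SE) (adjusted p = 0.0731). Together the copies gave 342 ± 16.2 FPKM in control clone 1, 253 ± 5.16 in control clone 2, 296 ± 6.97 in T-ERG clone 1 and 308 ± 11.8 in T-ERG clone 2 (SD, n = 5). Hspa1a made up 4.80% ± 0.424 and 4.03% ± 0.395 of that sum in the control clones and 2.69% ± 0.546 and 0.667% ± 0.248 in the T-ERG clones (SD, n = 5). The sources used here do not give how reads that match both copies were divided, so each copy's own level is uncertain.

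Hspa2, an HSP70 best known from male germ cells, was the 1 member called higher in clone 2 of control and lower in clone 2 of T-ERG. The share of all genes with this pair of calls was not counted, so it is not known to be particular to Hspa2. Ero1l, a pathway gene outside the members described below, had the same pair of calls. In control, Hspa2 was at 3.95, 4.68, 3.88, 4.98 and 3.87 FPKM in clone 1 and 9.47, 10.1, 14.8, 9.94 and 11.8 in clone 2. In T-ERG, Hspa2 was at 8.88, 7.77, 6.38, 7.41 and 6.63 FPKM in clone 1 and 3.95, 2.84, 3.86, 2.94 and 3.52 in clone 2. Clone 2 was higher by 1.20 ± 0.13 (SE) in control (adjusted p = 2.15e-05) and lower with a difference of -0.93 ± 0.12 (SE) in T-ERG (adjusted p = 0.00014), and the difference between these was not tested because clone numbers are unrelated across genotypes.

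Both cytosolic HSP90 genes ranked control clone 1 lowest and T-ERG clone 2 highest. Hsp90aa1 (ENSMUSG00000021270, chromosome 12, 110691036 to 110696395), the stress-responsive form, was at 137, 123, 123, 116 and 123 FPKM in control clone 1 and 254, 245, 237, 270.1 and 232 in control clone 2. In T-ERG, Hsp90aa1 was at 244, 234, 235, 250.5 and 276 FPKM in clone 1 and 369.8, 329.6, 388, 339 and 344 in clone 2. Control clone 2 and T-ERG clone 1 overlapped, and the genotype difference was 0.75 ± 0.38 (SE) (adjusted p = 0.577). Clone 2 was higher by 0.99 ± 0.05 (SE) in control (adjusted p = 1.01e-07) and 0.51 ± 0.06 (SE) in T-ERG (adjusted p = 5.81e-05). Hsp90ab1, the constitutive form, had means of 1017 ± 38.8 and 1281 ± 18.3 FPKM in control and 1148 ± 24.6 and 1468 ± 28.0 in T-ERG (SD, n = 5), with clone differences of 0.33 ± 0.03 (SE) and 0.35 ± 0.03 (SE) (adjusted p = 4.83e-06 and 1.90e-06).

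**Figure D4:**
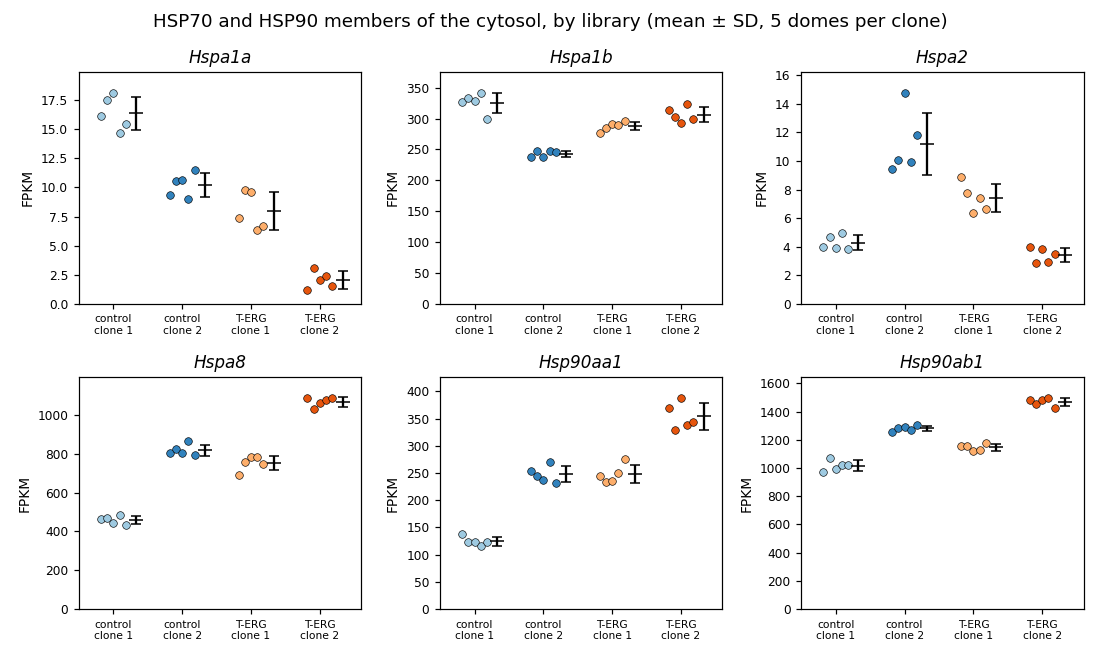
FPKM (vertical axes, linear from 0) of 6 cytosolic HSP70 and HSP90 genes, with 1 point per library, clones along the horizontal axis and bars for the mean and SD of 5 domes. Hspa1a steps down from 16.4 to 2.06 across the clone means while Hspa1b stays between 243 and 326, and Hspa8, Hsp90aa1 and Hsp90ab1 are lowest in control clone 1 and highest in T-ERG clone 2.

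None of the 14 endoplasmic reticulum members had the means of both T-ERG clones above those of both control clones, 5 had them below, and the median difference was -0.05. The shares over all genes were 21.7% above and 23.2% below. Hspa5 (ENSMUSG00000026864, chromosome 2, 34772090 to 34776529) encodes BiP, the HSP70 of that compartment and sensor of its unfolded protein load. In control, Hspa5 was at 199, 189, 177, 186 and 188 FPKM in clone 1 and 275, 277, 304, 270.3 and 258 in clone 2. In T-ERG, Hspa5 was at 213, 231, 222, 231 and 217 FPKM in clone 1 and 276, 269.8, 243, 241 and 268 in clone 2. Both T-ERG clones lay between the extremes of control, with a genotype difference of 0.08 ± 0.23 (SE) from -0.53 to 0.68. Clone 2 was higher by 0.55 ± 0.05 (SE) in control (adjusted p = 3.48e-06) and 0.22 ± 0.05 (SE) in T-ERG (adjusted p = 0.0044). Hsp90b1 (GRP94, the HSP90 of the compartment) had means of 120.5 ± 4.77 and 194 ± 8.38 FPKM in control and 147 ± 4.21 and 192 ± 9.16 in T-ERG (SD, n = 5). The clone differences of Hsp90b1 were 0.68 ± 0.04 (SE) and 0.39 ± 0.04 (SE) (adjusted p = 2.68e-07 and 3.06e-05).

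Dnajb11, a J protein that serves BiP, was higher in clone 2 in both genotypes, by 0.28 ± 0.07 (SE) and 0.30 ± 0.05 (SE) (adjusted p = 0.00533 and 0.00138). Dnajb9, the J protein that returns BiP to the sensor IRE1, had means of 10.1 ± 1.49 and 9.86 ± 1.32 FPKM in control and 10.2 ± 1.65 and 6.43 ± 0.802 in T-ERG (SD, n = 5). Dnajb9 was called lower in T-ERG clone 2, with a difference of -0.59 ± 0.12 (SE) (adjusted p = 0.00333), while Hspa5 was higher there. Of the 14 endoplasmic reticulum members, 4 were called higher in T-ERG clone 2 and 1 lower, where the shares over all genes were 17.0% and 13.5%. Further members had differences below 0 that did not pass. Dnajc3, which holds the window element like Hspa5 and Hsp90b1, passed in neither clone comparison, with clone 2 minus clone 1 at 0.10 ± 0.07 (SE) in control and 0.13 ± 0.06 (SE) in T-ERG.

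The clones of a genotype differed in many members. In control, 24 members were higher in clone 2 and 4 lower at an adjusted p of 0.05, where the shares over all genes were 25.1% higher and 13.2% lower. All genes had a median difference of 0.10 between control clones and the members one of 0.15. With each library centred on its median, which removes that common shift, 18 members were higher and 8 lower, with 18.5% and 17.7% over all genes. In T-ERG, 16 members were higher in clone 2 and 7 lower, with 17.0% and 13.5% over all genes, and the medians were 0.07 for the members and 0.03 for all genes. In both genotypes 15 members were higher in clone 2, and 2 members, Hspa1a and Hspb1, were lower, where 8.61% and 4.64% of all genes were called higher and lower in both. Clone numbers are unrelated across genotypes, so these joint counts depend on the numbering and show no shared difference. The 1 member called higher in control clone 2 and lower in T-ERG clone 2 was Hspa2, and that share over all genes was not counted. These p-values measure the spread between domes of 1 clone each. Under median centring Dnaja2, Dnajc8, Dnajc9 and Dnajc19 lost their calls between control clones, and Dnajb1 gained one as lower.

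**Figure D5:**
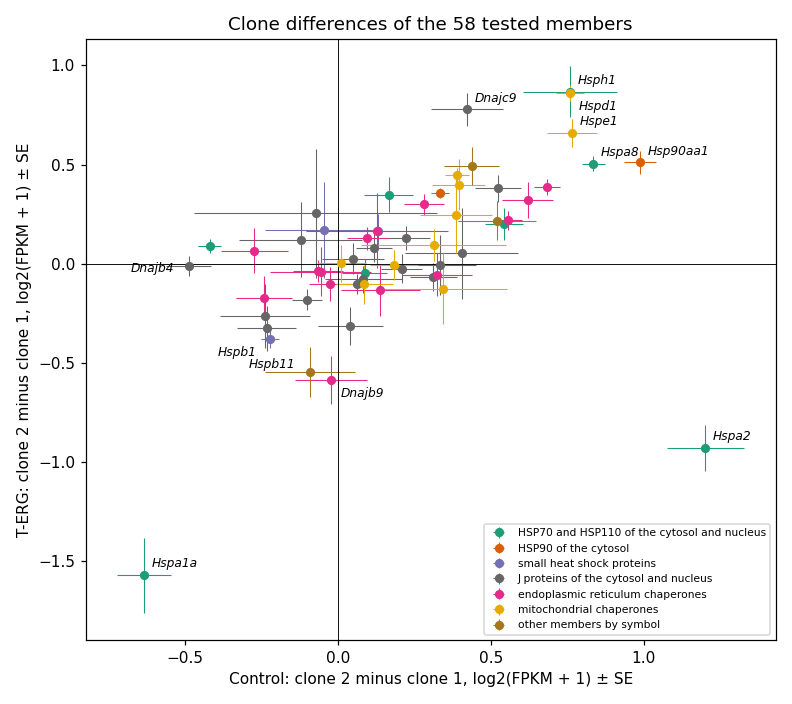
Clone 2 minus clone 1 on the log2(FPKM + 1) scale in control (horizontal axis) and T-ERG (vertical axis) for the 58 tested members, coloured by group, with bars for the SE from 5 domes per clone. Hspd1, Hspe1, Hsph1, Hspa8 and Hsp90aa1 lie at upper right, Hspa1a at lower left, and Hspa2 at lower right with 1.20 and -0.93.

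Of the members placed by symbol alone, Hspbp1, an exchange factor of HSP70, had means of 16.7 ± 2.25 and 22.8 ± 1.20 FPKM in control and 25.5 ± 3.80 and 36.0 ± 1.72 in T-ERG (SD, n = 5). Hspbp1 was higher in clone 2 by 0.44 ± 0.09 (SE) in control and 0.49 ± 0.10 (SE) in T-ERG (adjusted p = 0.00294 and 0.00248). Hspbap1, named for binding Hspb1, had a genotype difference of 0.62 ± 0.25 (SE) and was higher in control clone 2 by 0.52 ± 0.13 (SE) (adjusted p = 0.00728). Hspb11, which is IFT25 of the ciliary transport complex, was lower in T-ERG clone 2 with a difference of -0.55 ± 0.13 (SE) (adjusted p = 0.00725).

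Of 83 other genes of the pathway in 5 lists, 78 were tested, and none passed the genotype test in limma. Among these 78, the libraries of 3 genes separated by genotype with T-ERG higher, and those of 2 with T-ERG lower. The shares over all genes were 2.50% higher and 3.70% lower, so separation of the single genes named below was not particular to this pathway. Hsf1, the heat shock factor that drives the stress response, had means of 18.01 ± 1.72 and 20.5 ± 1.19 FPKM in control and 22.4 ± 3.58 and 26.2 ± 1.93 in T-ERG (SD, n = 5). Its genotype difference was 0.32 ± 0.18 (SE), and it passed in neither clone comparison, though without dome 3 of T-ERG clone 1 the T-ERG comparison gave an adjusted p of 0.015. Bag2, an HSP70 exchange factor, was 1 of 23 co-chaperones and separated, with means of 15.6 ± 2.53 and 19.3 ± 2.04 FPKM in control and 28.1 ± 3.22 and 35.0 ± 2.31 in T-ERG. Pfdn2, a subunit of the prefoldin that feeds the chaperonin CCT, also separated, with a difference of 0.54 ± 0.19 (SE). Among 13 chaperonin and prefoldin genes 7 had both clone means above and 1 below, with a median of 0.39, where the shares over all genes were 21.7% and 23.2%.

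Of 16 genes of mitochondrial import and quality control, 10 had both clone means above and 2 below, with a median of 0.29. Over all genes these shares were 21.7% and 23.2%. Tomm20, an import receptor, separated at 0.46 ± 0.17 (SE). The 22 tested genes of endoplasmic reticulum folding had 0 above and 7 below, with a median of -0.05. Here Ero1l, the oxidase that drives disulfide formation, and Ern1, which encodes the sensor IRE1, lay below in all T-ERG libraries. Ero1l had means of 79.0 ± 7.18 and 160.4 ± 6.26 FPKM in control and 60.4 ± 6.87 and 29.3 ± 4.24 in T-ERG (SD, n = 5). Ero1l was higher in control clone 2 by 1.02 ± 0.06 (SE) and lower in T-ERG clone 2 with a difference of -1.03 ± 0.11 (SE) (adjusted p = 1.98e-07 and 3.78e-05). Ern1 had a difference of -0.65 ± 0.18 (SE) (adjusted p = 0.574) and no clone difference that passed. Between control clones 43 of the 78 were higher in clone 2 and 6 lower, where the shares over all genes were 25.1% and 13.2%. Between T-ERG clones 31 were higher and 7 lower, against 17.0% and 13.5%.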

How the data were processed

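RNA was sequenced from 20 libraries; 4 whole-genome samples were not used here. The authors deposited 1 table of log2(FPKM + 1), a scale checked on the values, of which 100% give back an FPKM of 2 decimals (tolerance 0.001 hundredths). RSEM 1.3.0, DESeq2 and build mm10 are named per the submitters' processing notes. BWA 0.7.12 is also named among the tools of all samples, which include the whole-genome samples. For the RNA table, the sources used here do not give the roles of these tools, the aligner or the use of strand. Depth is unknown. The members and lists were chosen with earlier results of these data known.

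Genes that reached 1 FPKM in 5 or more libraries entered limma 3.58.1 (R 4.3.3, intensity trend) on values as deposited, with two-sided p-values adjusted by Benjamini-Hochberg over 12899 genes and a threshold of 0.05. Genotypes were compared on 4 clone means, averaged over 5 domes on the log2 scale, and clones of a genotype on 5 against 5 libraries. The p-values measure only the spread between these clones or domes, and differences on this scale understate changes of low genes. Scripts were tested on simulated data. Named genes are a fixed core, the members whose libraries separated, the 3 most abundant per group and the 4 largest called clone differences each way. Coordinates are 1-based RefSeq spans on GRCm38.p6. On that annotation Hspa5, Dnajb4, Dnajc19 and Hspb6 overlap another protein-coding gene. Alternatives covered the pseudocount, filter, scaling, trend, blocks and left-out libraries or clones.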

Additional observations from a re-analysis of the deposited data

Results flagged for a closer look

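In 8 of 152 groups of 5 domes (5.26%), 1 dome stood apart from the other 4 by Dixon's test, and chance alone flags about 1 group in 20. T-ERG clone 1 dome 1 was high for Hspb1, at 1875 FPKM against 1588 to 1658, and for Dnajc3, at 20.5 against 18.1 to 18.6. Hspd1 was low in control clone 2 dome 10, at 124 against 129.97 to 132, and high in T-ERG clone 1 dome 3, at 151 against 138 to 141. Hsp90b1 was low in control clone 2 dome 8, at 179.7 against 195 to 199.99. Hspbap1 was low in control clone 2 dome 9, at 6.56 against 7.99 to 8.30. Of the other pathway genes, Ern1 was low in T-ERG clone 2 dome 10, at 3.93 against 5.10 to 5.48, and Tomm20 was low in control clone 2 dome 6, at 113 against 144 to 149. Each of these domes remained on its genotype's side for Hspb1, Hspd1, Ern1 and Tomm20, whose genotypes did not overlap.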

How the results depend on the processing

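On clone means, 0 members passed between genotypes under the pseudocount, filter, scaling and trend alternatives, without any 1 clone and with the clone number as a replicate block. With 2 against 2 clones no gene at all passed (smallest adjusted p 0.282), so these counts say nothing about stability. Where a clone was left out, the lone clone of that genotype was assumed to vary like those of the other. Fits of all 20 libraries called 13 members higher and 1 lower with the clone as a random block (5.23% and 5.61% of all genes) and 16 higher and 7 lower with domes taken as independent (2449 and 2288 of all genes). The first fit assumes the same correlation between domes of a clone for every gene, so it understates the spread of genes whose clones differ more. The second fit treats domes of 1 clone as separate clones. Between control clones, the 4 members called lower became 8 with median centring and 8 with quantile normalization, while the share of all genes called lower went from 13.2% to 17.7% and 17.8% (called higher, from 25.1% to 18.5% and 18.2%). A block by technical replicate number, added after seeing the data, gave 20 higher and 4 lower, and with it Dnajc9, Dnaja2 and Dnajc8 had adjusted p of 0.0518, 0.0549 and 0.0983 and Bag2 gained a call. The control calls of Dnajc8, Dnaja2 and Dnajc19 were also lost with quantile normalization and without a filter, those of Dnajc8 and Dnaja2 without the trend, and that of Dnajc19 in 1 fit of all 20 libraries, with adjusted p from 0.0549 to 0.220 over these. The numbers pair no samples by design. Over the genes tested, deviations of same-numbered clones from their genotype mean correlated across genotypes with r = 0.168. With 2 clones per genotype the deviations mirror each other, so the sign of this r follows the numbering. Deviations of same-numbered control domes correlated with r from 0.0088 to 0.0595. No other alternative moved a count of called members by over 1.5 times.

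Leaving out 1 clone changed the counts of members that separate by genotype, and it also leaves fewer libraries to overlap. All-library counts then ran from 5 to 17 above (3.51% to 13.1% of all genes) and 0 to 3 below (4.74% to 10.6%), and clone-mean counts from 21 to 36 above (29.6% to 45.2%) and 13 to 23 below (32.5% to 40.3%).

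Small differences that passed no test changed sign. Between control clones Hspa4l went to -0.0031 with median centring. Over left-out clones the genotype differences crossed 0 for Dnaja1 (-0.10 to 0.21), Dnaja2 (-0.078 to 0.13), Dnajb1 (-0.11 to 0.073), Dnajb11 (-0.041 to 0.26), Dnajb9 (-0.56 to 0.028), Dnajc8 (-0.0099 to 0.21), Hsp90b1 (-0.21 to 0.48), Hspa1b (-0.13 to 0.29), Hspa2 (-0.99 to 0.21), Hspa5 (-0.20 to 0.35) and Hspb6 (-0.015 to 0.15). Over left-out domes those between control clones did for Dnajb9 (-0.10 to 0.027), Hspb11 (-0.17 to 0.0011) and Hspb6 (-0.15 to 0.060), and those between T-ERG clones for Dnaja2 (-0.087 to 0.026), Dnaja3 (-0.055 to 0.035), Dnajb4 (-0.033 to 0.0065) and Ern1 (-0.11 to 0.023). FPKM carries no read counts, so the counting error of low members such as Hspb6 is unknown.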
